A study of Mus musculus with 9 samples.

Results

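The 10 transcripts described here belong to lung epithelium and were measured in cells sorted from mouse lung by reporters of type I collagen and Foxf1 expression. They were chosen by name and were all found among the 19348 genes of the count table. Sftpc, Sftpa1, Sftpb, Sftpd, Lamp3 and Abca3 mark alveolar type 2 cells, and Scgb1a1, Bpifa1, Bpifb1 and Muc5b mark secretory cells of the conducting airways. All 10 passed the filter on low counts that left 15550 genes for testing. The study sorted lung cells of C57BL/6J mice with the genotype Col1_GFP;Foxf1_tdTomato, in which a green reporter marks type I collagen expression and a red reporter marks expression of the forkhead factor Foxf1. All 3 populations came from this genotype. DBL cells carried both reporters, ColGFP cells the collagen reporter alone and TDonly cells the Foxf1 reporter alone, with 3 libraries each. No treatment or time point is labelled. The sources used here do not give the age of the mice, the sort gates or any pooling of animals. The labels do not say whether each library came from its own animal. The spread behind every p-value is thus that between these libraries, and it may be technical. The extraction protocol in the labels speaks of frozen lung and does not mention sorted cells.

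Alveolar type 2 cells make pulmonary surfactant, a mixture of phospholipid and protein that lowers surface tension in the air spaces. They store it in lysosome-related organelles called lamellar bodies and secrete it by exocytosis. Airway secretory cells line the bronchi and bronchioles and release secretoglobins, BPIF proteins and mucins into the airway fluid. Neither cell type belongs to the mesenchymal or endothelial lineages in which Foxf1 and type I collagen are known to be expressed, and the transcripts are used here as a readout of epithelial RNA in each sorted library.

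Depth was 17820969 to 26147475 counts per library. Levels are given as CPM (counts scaled to a common library size) on library sizes scaled by the trimmed mean of M-values (TMM), and levels of different genes are compared only as CPM per kilobase of annotated exon. The replicate 1 library of each population carries a lower sample number in the labels than the other libraries of its population, whose numbers run on from each other. These are called the first series (1 library per population) and the second series (2 per population). The sources used here do not say what the numbers stand for. ColGFP replicate 1 lay above the other ColGFP libraries for every transcript described here. Beyond the epithelial genes, 9 mesenchymal markers summed to 22831 CPM in that library against 39597 and 38724 CPM in ColGFP replicates 2 and 3. Results are therefore given over all libraries, within the second series and without that library.

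The promoters of the transcripts are shown first as background, since lung epithelial genes are known targets of NKX2-1, FOXA and C/EBP factors. Whether these sites had a part in the levels described below was not tested. In the RefSeq promoter table of build GRCm38.p6, 6 of the 10 genes had an entry: Sftpa1, Sftpb, Lamp3, Abca3, Bpifa1 and Bpifb1. Sftpc, Sftpd, Scgb1a1 and Muc5b were not in the table. The 250 bases before each start were searched on both strands for CTCAAG (NKX2-1), TGTTTAC (FOXA) and TTNNGCAA (C/EBP). The 4 windows that held a match follow, 5′ to 3′ on the strand of the gene, with the matched letters in capitals.
Sftpb, chr6:72304360-72304609, plus strand: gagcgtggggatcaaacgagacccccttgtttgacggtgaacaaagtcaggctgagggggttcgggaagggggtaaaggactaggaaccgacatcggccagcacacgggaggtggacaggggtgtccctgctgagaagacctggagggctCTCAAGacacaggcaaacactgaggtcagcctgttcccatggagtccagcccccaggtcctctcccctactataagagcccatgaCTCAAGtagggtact
Sftpa1, chr14:41131538-41131787, plus strand: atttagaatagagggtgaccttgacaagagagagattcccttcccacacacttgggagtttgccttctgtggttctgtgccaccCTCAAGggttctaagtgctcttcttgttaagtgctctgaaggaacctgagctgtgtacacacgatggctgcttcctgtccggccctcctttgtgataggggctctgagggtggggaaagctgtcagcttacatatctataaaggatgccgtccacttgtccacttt
Lamp3, chr16:19706366-19706615, minus strand: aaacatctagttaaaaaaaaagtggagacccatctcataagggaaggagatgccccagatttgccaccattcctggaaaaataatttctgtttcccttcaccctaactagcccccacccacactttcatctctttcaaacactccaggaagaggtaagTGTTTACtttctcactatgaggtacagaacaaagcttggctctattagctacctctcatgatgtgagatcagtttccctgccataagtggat
Bpifa1, chr2:154142630-154142879, plus strand: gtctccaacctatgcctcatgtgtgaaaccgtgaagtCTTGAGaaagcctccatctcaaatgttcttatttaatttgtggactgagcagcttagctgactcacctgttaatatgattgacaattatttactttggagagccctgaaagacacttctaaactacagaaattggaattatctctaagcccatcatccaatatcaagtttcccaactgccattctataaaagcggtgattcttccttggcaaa
Sftpb held 2 copies of CTCAAG and Sftpa1 held 1, while Bpifa1 held its reverse complement CTTGAG. Lamp3 held TGTTTAC. No 2 matches overlapped. The windows of Abca3 and Bpifb1 held none of the 3 motifs. Of 32851 windows of this length in the table, 13.3% held CTCAAG on either strand, 3.17% held TGTTTAC and 9.56% held TTNNGCAA, and a match describes only these letters.

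Sftpc was the most abundant of the 10 per kilobase in every population, and the type 2 transcripts as a set were present in every library. Sftpc encodes surfactant protein C, a small hydrophobic peptide made almost only by type 2 cells (mm10, chromosome 14, 70520949 to 70524081, minus strand). Its level was 7116, 3806 and 2568 CPM in ColGFP replicates 1, 2 and 3. It was 4604, 4590.4 and 4702 CPM in DBL replicates 1, 3 and 4, and 6792, 8189 and 7944 CPM in TDonly replicates 1, 2 and 3. The DBL libraries lay within a narrow band below all TDonly libraries, and the ColGFP libraries spanned both, with replicate 1 inside the TDonly range. Ranked by CPM per kilobase among 17345 genes with an annotated length, Sftpc was first in every TDonly library and between first and rank 4 in the ColGFP libraries. In bulk RNA a lower level can mean fewer cells of a type or less RNA per cell, and these cannot be told apart.

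Sftpb encodes surfactant protein B, the hydrophobic protein needed to pack phospholipid into lamellar bodies (chromosome 6, 72304610 to 72314371, plus strand). Sftpb stood at 2103, 947 and 648 CPM in ColGFP, 1178, 1248 and 1358 CPM in DBL, and 2055, 2335 and 2184 CPM in TDonly, in replicate order as above. Sftpa1, a collectin of the surfactant film that binds microbes (chromosome 14, 41131782 to 41136452, plus strand), stood at 1869.6, 862 and 567 CPM in ColGFP, 957, 1149.6 and 1088 CPM in DBL, and 1632, 1884 and 1845 CPM in TDonly. Sftpd, the other surfactant collectin and a neighbour of Sftpa1 (chromosome 14, 41172214 to 41185149, minus strand), stood at 255, 115 and 72.3 CPM in ColGFP, 165, 149 and 144 CPM in DBL, and 251, 242 and 261 CPM in TDonly. These 3 genes showed the arrangement of Sftpc: TDonly lay above DBL without overlap, ColGFP replicate 1 was at the TDonly level, and ColGFP replicates 2 and 3 were the lowest libraries of all.

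The organelle genes were arranged alike, with ColGFP replicate 1 a little lower. Lamp3, a lysosome-associated membrane protein of lamellar bodies (chromosome 16, 19653378 to 19706375, minus strand), stood at 326, 169 and 107 CPM in ColGFP, 213, 222 and 193 CPM in DBL, and 349.8, 363 and 369 CPM in TDonly. Abca3, the transporter that loads phospholipid into lamellar bodies (chromosome 17, 24351950 to 24410201, plus strand), stood at 368, 242 and 183 CPM in ColGFP, 295, 336 and 329 CPM in DBL, and 510.4, 516 and 501 CPM in TDonly. For both genes every TDonly library lay above every ColGFP library, replicate 1 included. Abca3 overlaps the antisense transcript D330041H03Rik and the small nuclear RNA gene Gm25618, and since the sources used here do not give the strand setting of the counting, their reads cannot be separated.

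The airway transcripts had a wider spread. Scgb1a1 encodes the club cell secretory protein (chromosome 19, 9083636 to 9087958, minus strand). Its level was 375, 75.5 and 52.9 CPM in ColGFP, 103, 437 and 437 CPM in DBL, and 340.2, 1710.3 and 1466 CPM in TDonly. The first series and the second series therefore differed in the place of ColGFP. In the first the ColGFP library was the highest, near the TDonly library, and the DBL library was the lowest. In the second TDonly was the highest and ColGFP the lowest. DBL lay below TDonly in each series.

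Bpifa1 and Bpifb1 encode secreted BPI-fold proteins of the airway lining and lie close together on chromosome 2 (154142880 to 154149219 and 154190818 to 154220369, both plus strand). Bpifa1 stood at 15.5, 3.81 and 2.22 CPM in ColGFP, 5.80, 20.3 and 26.1 CPM in DBL, and 30.9, 114 and 112 CPM in TDonly. Bpifb1 stood at 11.6, 2.42 and 1.52 CPM in ColGFP, 3.81, 10.3 and 10.46 CPM in DBL, and 16.9, 50.3 and 49.9 CPM in TDonly. Muc5b, the gel-forming mucin of the airway (chromosome 7, 141839070 to 141873084, plus strand), stood at 32.7, 6.23 and 4.57 CPM in ColGFP, 6.71, 15.0 and 17.1 CPM in DBL, and 37.7, 78.7 and 72.0 CPM in TDonly. For these 3 genes every TDonly library exceeded every library of the other populations. The lowest value rested on 33 counts, for Bpifb1 in ColGFP replicate 3, with an exact 95% Poisson interval of 1.05 to 2.14 CPM that covers counting error only.

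**Figure D1:**
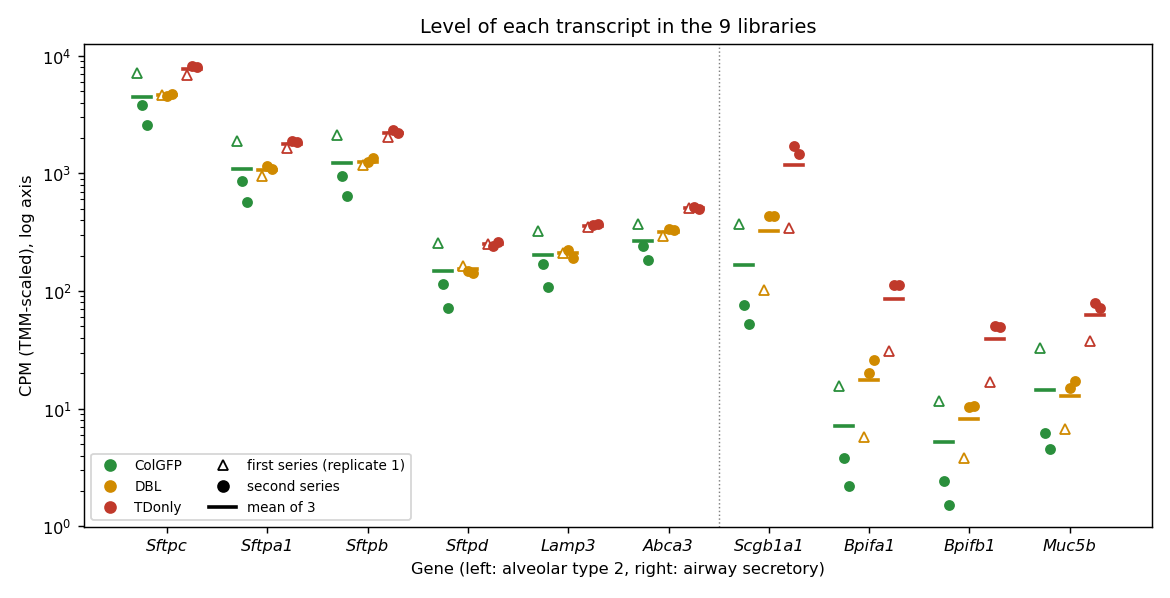
Level of each transcript in each of the 9 libraries, in CPM on a log axis. Colours mark the populations, open triangles the first series, filled circles the second series and bars the mean of 3 libraries. The open green triangle (ColGFP replicate 1) sits above the filled green circles for every gene, and the open triangles of DBL and TDonly sit below their filled circles for the 4 airway genes.

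Compared per kilobase of exon, Sftpc led in each population with 4348 ± 2274 CPM per kilobase in ColGFP, 4480 ± 58.5 in DBL and 7391 ± 721 in TDonly (mean ± SD, n = 3). The next places were shared by Sftpb, Sftpa1 and Scgb1a1. In TDonly, Scgb1a1 was second with 2462 ± 1535 CPM per kilobase, a spread that reaches Sftpb at 1113 ± 71.2. In DBL, Scgb1a1 at 684 ± 406 and Sftpb at 641 ± 46.2 CPM per kilobase did not differ beyond their spread, and the same held for Sftpb, Sftpa1 and Scgb1a1 in ColGFP. Sftpd and Lamp3 lay next to each other in every population, at 63.2 ± 4.52 and 62.3 ± 4.44 CPM per kilobase in DBL, for example. Abca3 followed in ColGFP and DBL, and in TDonly Bpifa1 (55.3 ± 30.6) and Abca3 (54.3 ± 0.814 CPM per kilobase) lay within their spread. Bpifb1 and Muc5b were the lowest, with Muc5b at 0.864 ± 0.367 CPM per kilobase in DBL and 4.20 ± 1.47 in TDonly.

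The 6 type 2 transcripts kept close proportions to each other, and the airway transcripts did not keep theirs to the type 2 transcripts. Sftpa1 ranged from 20.8 to 26.3% of the Sftpc CPM across the 9 libraries, and Sftpb from 24.9 to 30.3%. Lamp3 ranged from 4.10 to 5.15% of it and Abca3 from 5.18 to 7.51%. In contrast, Sftpc per kilobase was 2.20 times Scgb1a1 per kilobase in TDonly replicate 2 and 23.2 times in ColGFP replicate 2. The airway transcripts also kept looser proportions to each other: Bpifa1 ranged from 4.13 to 9.08% of the Scgb1a1 CPM and Muc5b from 3.43 to 11.1%. Together the 6 type 2 transcripts made up 0.384% of the counts of a library in ColGFP replicate 3 and 1.46% in TDonly replicate 2, the extremes. The 4 airway transcripts made up 0.00566% and 0.211% in the same libraries.

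The airway share of the counts of all 10 transcripts separated the libraries by series as well as by population. In the second series it was 1.41% (95% Wilson interval 1.34 to 1.49%) and 1.45% (1.38 to 1.53%) in ColGFP, 5.90% (5.79 to 6.01%) and 5.91% (5.81 to 6.02%) in DBL, and 12.6% (12.5 to 12.7%) and 11.5% (11.4 to 11.6%) in TDonly. In the first series it was 3.48% (3.42 to 3.55%) in ColGFP, 1.58% (1.53 to 1.64%) in DBL and 3.54% (3.48 to 3.61%) in TDonly. These intervals cover counting error only. The second series ran from ColGFP through DBL to TDonly, whereas the first series had ColGFP and TDonly near each other and DBL lowest. The log2 ratio of Scgb1a1 to Sftpc per kilobase was −4.05 ± 0.80 in ColGFP, −2.98 ± 1.20 in DBL and −1.89 ± 1.14 in TDonly (mean ± SD, n = 3). In two-sided exact permutation tests of this ratio, p was 0.2 for DBL against ColGFP, 0.3 for DBL against TDonly and 0.2 for TDonly against ColGFP (0.3 for each after Benjamini-Hochberg adjustment over 3 comparisons), and 3 libraries against 3 cannot give less than 0.1.

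**Figure D2:**
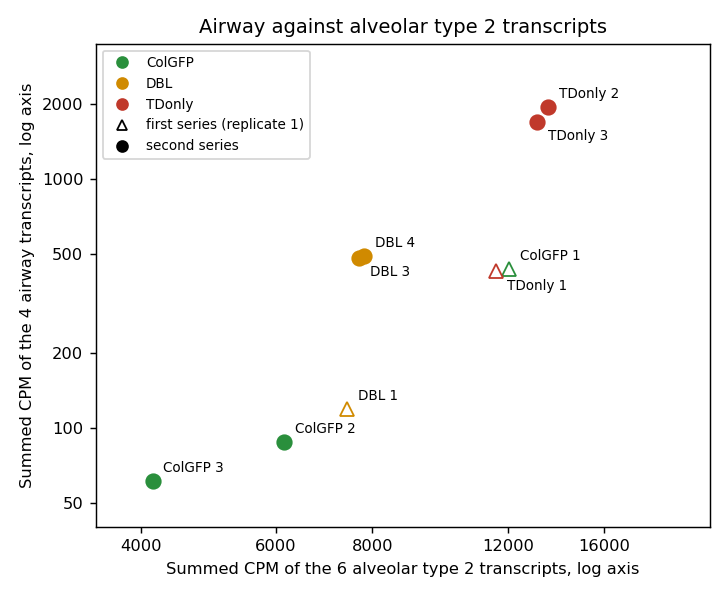
Summed CPM of the 4 airway transcripts (vertical, log axis) against the summed CPM of the 6 alveolar type 2 transcripts (horizontal, log axis), 1 point per library, coloured by population, with open triangles for the first series. The first-series ColGFP library (12038 and 434 CPM) lies beside the first-series TDonly library (11590.1 and 426 CPM), away from the other ColGFP libraries at 6141 and 88.0 and at 4146 and 61.2 CPM.

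No difference between DBL and ColGFP cells passed the test over all libraries. None of the 10 transcripts passed the edgeR quasi-likelihood test at a Benjamini-Hochberg adjusted p of 0.05, none had an unadjusted p under 0.05, and DESeq2 also called 0. Among all tested genes, 14.5% passed in this comparison in edgeR, 8.04% as higher and 6.47% as lower. DESeq2 called 1602 of 15550 genes higher and 1287 lower. The log2 fold changes ran from −0.18 for Muc5b to 1.26 ± 0.78 (SE) for Bpifa1, with a median of 0.055 for the 10 and −0.0032 for all genes. For 0 of 10 transcripts did the libraries of the populations lie apart, while 16.9% of all genes had DBL above ColGFP without overlap and 16.4% had it below. Sftpc gave a log2 fold change of 0.043 ± 0.31 (SE) with an edgeR adjusted p of 0.952, and Scgb1a1 gave 0.96 ± 0.84 with an adjusted p of 0.532. Without ColGFP replicate 1, the library that stood apart, 4 of 10 passed as higher in DBL, against 9.41% of all genes: Sftpb, Sftpd, Lamp3 and Abca3.

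Within the second series all 10 transcripts passed the edgeR test as higher in DBL, with adjusted p from 9.6e-12 to 0.0025 in a fit with 3 residual degrees of freedom. In that fit 16.3% of all genes were called higher in DBL than in ColGFP. The type 2 transcripts rose by 0.56 to 0.72 on the log2 scale and the airway transcripts by 1.60 for Muc5b, 2.44 for Bpifb1 and 2.79 for Scgb1a1, with Bpifa1 above these. On the linear scale Scgb1a1 was 6.92-fold and Bpifb1 5.44-fold higher in DBL. In the first series, with 1 library each and so no test, all 10 were lower in DBL, with log2 ratios from −0.32 for Abca3 to −2.28 for Muc5b. The difference between the series was put to an interaction term of population and series, added after the opposite values of the first series had been seen. Since the first series holds 1 library per population, all of the error in this fit came from the second-series pairs (3 residual degrees of freedom), and the lone libraries were assumed to vary like those pairs. The term therefore measures how far these single libraries lay from the second series and is no replicated test of the first. Under that assumption it passed for 10 of 10 transcripts, all in the negative direction (first minus second), against 6.81% of all genes in that direction. The interaction values were −0.97 to −1.61 for the type 2 transcripts and −3.87 to −4.64 for the airway transcripts, with edgeR adjusted p of at most 0.0021.

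DBL against TDonly gave one direction for every transcript in both series. All 10 were lower in DBL, and 4 passed the edgeR test over all libraries, where 12.6% of all genes were called lower and 29.9% in either direction. Abca3 fell by 0.67 on the log2 scale (SE 0.21, edgeR adjusted p = 0.0393) and Muc5b by 2.28 (SE 0.69, adjusted p = 0.0329). Bpifa1 fell by 2.30 (SE 0.77, edgeR adjusted p = 0.0491) and Bpifb1 by 2.25 (SE 0.72, adjusted p = 0.0403). For 9 of 10 transcripts the DBL libraries lay below the TDonly libraries without overlap, as 23.2% of all tested genes did. The exception was Scgb1a1, whose 437 CPM in DBL replicates 3 and 4 exceeded the 340.2 CPM of TDonly replicate 1. The log2 fold change of Sftpc was −0.72 ± 0.31 with an edgeR adjusted p of 0.114, and that of Scgb1a1 was −1.85 ± 0.86 with an adjusted p of 0.139. The 4 calls depended on the libraries entered: 0 of 10 passed without DBL replicate 1, 3 or 4 or without TDonly replicate 2 or 3, 3 passed without TDonly replicate 1, 2 without ColGFP replicate 2 and 5 without ColGFP replicate 3. In these fits 1155 to 1914 of 15745 to 15813 genes were called lower in DBL. Without ColGFP replicate 1, 9 passed, all but Scgb1a1, against 12.8% of all genes called lower.

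The same difference was close in size in each series. In the second series all 10 passed as lower in DBL, where 19.4% of all genes did, with log2 fold changes of −0.57 to −0.78 for the type 2 transcripts and −1.82 to −2.23 for the airway transcripts. DBL cells thus held 0.593 times the Sftpc level and 0.284 times the Scgb1a1 level of TDonly cells. The first-series log2 ratios were −0.56 for Sftpc, −1.73 for Scgb1a1 and −2.49 for Muc5b, against −0.75, −1.82 and −2.19 in the second series. The interaction of this contrast with series, with the same assumption on the lone libraries, ran from −0.26 to 0.24, and 0 of 10 passed in edgeR, 0 had an unadjusted p under 0.05 and DESeq2 called 0. Of all genes, 4.85% passed that interaction test in edgeR, and DESeq2 called 596 of 15550 genes higher and 81 lower.

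TDonly cells held more of the airway transcripts than ColGFP cells over all libraries. 5 of 10 transcripts passed the edgeR test as higher in TDonly, where 21.6% of all genes did, and none was lower, where 24.0% were (45.5% in either direction). Bpifa1 rose by 3.56 on the log2 scale (SE 0.82, edgeR adjusted p = 0.0060), Bpifb1 by 2.89 (SE 0.75, adjusted p = 0.0106) and Scgb1a1 by 2.80 (SE 0.89, adjusted p = 0.0281). Muc5b rose by 2.10 (SE 0.69, edgeR adjusted p = 0.0313). Of the type 2 transcripts, Abca3 rose by 0.94 (SE 0.21, edgeR adjusted p = 0.0052). The other 5 type 2 transcripts had positive fold changes of 0.70 to 0.84 and adjusted p of 0.054 to 0.135. Lamp3, Abca3, Bpifa1, Bpifb1 and Muc5b had every TDonly library above every ColGFP library, as 27.3% of all genes did. All 10 passed without ColGFP replicate 1, against 21.6% of all genes called higher. With a series term beside population 8 passed, but Scgb1a1 no longer did (log2 fold change 2.66, edgeR adjusted p = 0.0647). DESeq2 and limma-voom each called 8. Of 15550 genes, 3752 were called higher with the series term, 3632 in DESeq2 and 3280 in limma-voom. Of the 10, 3 passed without ColGFP replicate 2 or 3 or without TDonly replicate 2 or 3. In those fits 2439 to 2911 of 15745 to 15813 genes were called higher.

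Within the second series all 10 passed as higher in TDonly, where 26.8% of all genes did, with 29.8% lower. The type 2 transcripts rose by 1.23 to 1.48 on the log2 scale, and the airway transcripts by 3.79 to 5.23. Scgb1a1 was 24.4-fold and Bpifa1 37.7-fold higher in TDonly than in ColGFP. In the first series the log2 ratios lay between −0.20 for Sftpa1 and 1.00 for Bpifa1, with Sftpc at −0.067 and Scgb1a1 at −0.14. Under the same assumption, with the spread taken from the second-series pairs alone, the interaction with series passed for 10 of 10 transcripts, all negative, against 10.4% of all genes in that direction, with values from −0.79 for Abca3 to −4.77 for Scgb1a1. The 3 comparisons share libraries in pairs, so their values are not independent of each other.

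**Figure D3:**
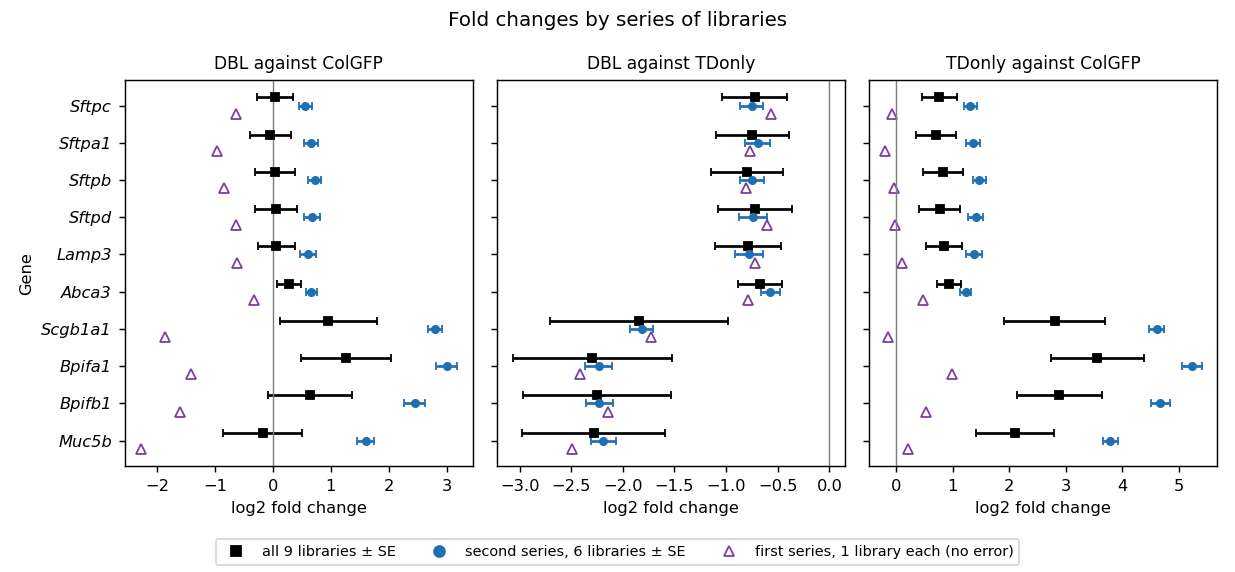
Log2 fold change of each transcript in the 3 comparisons. Black squares are the fit over all 9 libraries and blue circles the second series alone, both with the standard error, and open triangles are the ratio of the 2 first-series libraries, which has no error. For DBL against TDonly the 3 kinds of point lie together, and for the comparisons with ColGFP the triangles lie to the left of the circles for every transcript.

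The series term beside population, which asks whether first-series libraries differ in the same way in all populations, passed for 0 of 10 transcripts (1 at an unadjusted p under 0.05), against 7.65% of all genes. DESeq2 also called 0, where 699 of 15550 genes were higher and 1201 lower. The first-series library moved in different directions by population. In ColGFP it exceeded the mean of the second series 1.73 to 2.72 times for the type 2 transcripts and 5.13 to 6.05 times for the airway transcripts. In DBL it held 0.855 to 1.12 times the second-series mean of the type 2 transcripts and 0.235 to 0.418 times that of the airway transcripts. In TDonly these ranges were 0.842 to 1.00 and 0.214 to 0.501. The type 2 transcripts of DBL and TDonly were therefore close between series, while the airway transcripts of all 3 populations were not. Without ColGFP replicate 1 the series term passed for 4 of 10 transcripts, against 16.2% of all genes.

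Other genes of type 2 cells had the same arrangement of libraries. The list of 15 further type 2 genes (such as the phosphate transporter Slc34a2, the chemokine Cxcl15, the lysozyme Lyz1 and complement component Hc) summed to 2040 to 6499 CPM in ColGFP, 3903 to 4099 in DBL and 6673 to 7029 in TDonly, and none was at 0 in any library. Over all libraries 0 passed for DBL against ColGFP, 2 were lower in DBL than in TDonly and 7 were higher in TDonly than in ColGFP. Of all genes, 14.5% passed in the first of these comparisons, 12.6% were lower in the next and 21.6% higher in the last. In the second series all 15 passed in each of these directions, with medians of 0.69, −0.74 and 1.40 on the log2 scale. There 16.3%, 19.4% and 26.8% of all genes did. Slc34a2 stood at 2342, 1036 and 694 CPM in ColGFP, 1304, 1408 and 1383 CPM in DBL, and 2356, 2467 and 2376 CPM in TDonly. ColGFP replicate 1 lay just below the TDonly libraries.

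Genes that supply and process surfactant, many of them also used by other cell types, were compared next. Over all libraries they were called in shares near or below those of all genes in the comparisons of populations. Of 15 such genes (proteases, phospholipid and fatty acid enzymes, trafficking factors), 2 were higher and 4 lower in TDonly than in ColGFP over all libraries, where 21.6% and 24.0% of all genes were. In the second series 7 rose and 4 fell, where 26.8% and 29.8% of all genes did. There 7 were lower in DBL than in TDonly and 7 higher in DBL than in ColGFP, where 19.4% and 16.3% of all genes were. In these comparisons 4 and 1 went the other way, where 3693 and 1969 of 15616 genes did. The list shares Slc34a2, Napsa, Ctsh and Lpcat1 with the type 2 list. Gpr116, an adhesion receptor known both as a surfactant sensor of type 2 cells and as an endothelial gene, stood at 551, 390.3 and 332 CPM in ColGFP, 1882, 1709.8 and 1713 CPM in DBL, and 4809, 4764 and 4931 CPM in TDonly. Its first-series and second-series libraries lay close together in DBL and TDonly, and its ColGFP libraries lay far below both. Scd1 stood at 2313, 1258 and 856 CPM in ColGFP, 1222, 1765 and 1700 CPM in DBL, and 2177, 2909 and 2978 CPM in TDonly. Fasn stood at 880, 582 and 515 CPM in ColGFP, 582, 708 and 719 CPM in DBL, and 788, 928 and 820 CPM in TDonly. For Scd1 and Fasn, ColGFP replicate 1 lay inside the TDonly range and every DBL library below that range.

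Most of the other airway secretory genes had the second-series directions of Scgb1a1, and Hp differed from it in 1 library. Of 19 such genes 18 could be tested, and 9 were higher in TDonly than in ColGFP over all libraries, 4 lower in DBL than in TDonly, and 0 higher and 1 lower in DBL than in ColGFP. Of all genes 21.6%, 12.6%, 8.04% and 6.47% were, in the same order. In the second series 16 of 18 were higher in TDonly than in ColGFP, 17 lower in DBL than in TDonly and 12 higher in DBL than in ColGFP. There 26.8%, 19.4% and 16.3% of all genes were. Their summed level was 226 to 728 CPM in ColGFP, 595 to 1605 CPM in DBL and 696 to 1521 CPM in TDonly. The highest sum, in DBL replicate 1, came with 1315 CPM of Hp (haptoglobin), against 71.1 and 79.4 CPM of Hp in DBL replicates 3 and 4, whereas Scgb1a1 was lowest in that DBL library. Cyp2f2, a cytochrome P450 of club cells, stood at 82.2, 22.9 and 17.1 CPM in ColGFP, 27.1, 98.5 and 103 CPM in DBL, and 75.8, 364 and 334 CPM in TDonly. Scgb3a1, another secretoglobin, stood at 16.3, 2.90 and 2.03 CPM in ColGFP, 4.84, 13.1 and 15.2 CPM in DBL, and 18.6, 68.3 and 58.4 CPM in TDonly. In both genes ColGFP replicate 1 was above its population and the other first-series libraries were below theirs, as for the 4 airway transcripts. Agr2, a chaperone of mucin production, was at 0 in ColGFP replicates 2 and 3 and in DBL replicate 1, and Upk3a was at 0 in ColGFP replicate 2, DBL replicate 3 and TDonly replicates 1 and 2. The other 17 genes were above 0 in every library.

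The genes whose pattern over the 9 libraries lay nearest to Sftpc and to Scgb1a1 formed separate groups. Likeness was the root mean square difference in log2 CPM after centring each gene on its mean, a description with no test, and all points share the same libraries and depth. Nearest to Sftpc were Lyz2 (0.074), Slc44a3 (0.080), Acot7 (0.092), Sftpa1 (0.093) and Lamp3 (0.095). Nearest to Scgb1a1 were Scgb3a2 (0.13), Gabrp (0.18), Cyp2f2 (0.21), Scgb3a1 (0.23) and Bpifb1 (0.31). The other type 2 transcripts lay 0.093 to 0.15 from Sftpc, whereas Scgb1a1 lay 1.24 from it. Muc5b, the least like Scgb1a1 of the airway transcripts, lay 0.56 from Scgb1a1 and 0.95 from Sftpc.

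Markers of other epithelial cells moved with these transcripts between TDonly and ColGFP, and over all libraries fewer of them did between DBL and TDonly. Over all libraries 21.6% of all genes were higher and 24.0% lower in TDonly than in ColGFP. For DBL against TDonly 12.6% were lower in DBL and 29.9% passed in either direction. All 11 general epithelial genes, among them the adhesion molecule Cdh1 and the keratins Krt8, Krt19 and Krt7, were higher in TDonly than in ColGFP over all libraries. Their summed level was 134 to 339 CPM in ColGFP, 334 to 350.5 CPM in DBL and 412 to 570.0 CPM in TDonly, with none at 0. For DBL against TDonly 3 of 11 passed as lower in DBL, and the log2 fold changes of Krt19 (0.15) and Krt7 (0.16) were positive and did not pass. Of 10 alveolar type 1 genes, which mark the flat cells of gas exchange, 5 were higher and 1 lower in TDonly than in ColGFP, and 3 were lower and 1 higher in DBL than in TDonly. Their sum ran from 884 to 1631 CPM in ColGFP, 1757 to 1824 CPM in DBL and 2920.2 to 3285 CPM in TDonly, with none at 0. Emp2 and Clic5 were the most abundant of them. Against ColGFP, Clic5 had log2 fold changes of 2.90 in TDonly and 1.63 in DBL, and both passed (edgeR adjusted p = 4.1e-05 and 0.0045). Ager had 0.91 and 0.43, and neither passed (edgeR adjusted p = 0.068 and 0.513). The type 1 genes thus did not share 1 pattern. Of 11 ciliated cell genes 7 were higher in TDonly than in ColGFP and 0 passed for DBL against TDonly, with sums of 122 to 144 CPM in ColGFP, 121 to 215 CPM in DBL and 122 to 269 CPM in TDonly, and Ccdc113 at 0 in ColGFP replicate 3. Tppp3, the most abundant of them, stood at 104, 105 and 106 CPM in ColGFP, with no excess in replicate 1. Foxj1, the factor that defines ciliated cells, stood at 8.27, 6.59 and 3.88 CPM in ColGFP, 8.16, 14.2 and 14.5 CPM in DBL, and 12.5, 32.8 and 26.5 CPM in TDonly. At 122 CPM the ciliated sum of TDonly replicate 1 was no higher than that of the ColGFP libraries, and Tppp3 made up most of it (78.9 CPM). Foxj1 was higher in that library than in every ColGFP library. In the second series 9 of 11 general epithelial, 8 of 10 type 1 and 7 of 11 ciliated genes were lower in DBL than in TDonly. There 19.4% of all genes were. Of the type 1 genes 1 was higher in DBL, where 3693 of 15616 genes were.

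Of 12 tested lung epithelial transcription factors, 6 were higher in TDonly than in ColGFP over all libraries and 10 in the second series. Of all genes, 21.6% and 26.8% were. In the same order of fits 0 and 9 were higher in DBL than in ColGFP, where 8.04% and 16.3% of all genes were. For DBL against TDonly 2 and 9 were lower in DBL, where 12.6% and 19.4% of all genes were. Nkx2-1, the factor that defines lung epithelium, stood at 42.9, 26.7 and 13.3 CPM in ColGFP, 28.3, 29.7 and 32.2 CPM in DBL, and 48.3, 54.2 and 48.8 CPM in TDonly. It was above 0 in every library and had the library order of Sftpc in ColGFP. Genes of basal cells and of neuroendocrine cells were near the floor: the 5 basal genes summed to 1.36 to 5.64 CPM and the 3 neuroendocrine genes to at most 0.907 CPM, and none of the neuroendocrine genes passed the filter. Among the basal genes Krt5 was at 0 in ColGFP replicate 3, and Krt17 in all ColGFP libraries and DBL replicate 3.

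Markers of cells outside the epithelium also moved between the same libraries. The 12 endothelial genes summed to 723 to 1038 CPM in ColGFP, 3938 to 4928 CPM in DBL and 11256 to 12413 CPM in TDonly, with none at 0. All 12 passed in each comparison, where 14.5% (DBL against ColGFP), 29.9% (DBL against TDonly) and 45.5% (TDonly against ColGFP) of all genes did. The order of the sums was TDonly, DBL, ColGFP, in the first series as in the second. The 9 mesenchymal genes summed to 22831 to 39597 CPM in ColGFP, 35153 to 44735 CPM in DBL and 1506 to 5630.1 CPM in TDonly, again with none at 0, and the first-series library was the lowest of each population. Alveolar macrophage genes (14 measured rows, none at 0) summed to 158 to 180.0 CPM in ColGFP, 133 to 207 CPM in DBL and 409.8 to 829.5 CPM in TDonly. The 12 leukocyte genes summed to 183 to 228 CPM in ColGFP, 37.5 to 188 CPM in DBL and 119 to 468 CPM in TDonly, none at 0, and the first-series library was the lowest of each population. The 6 mesothelial genes summed to 90.3 to 149 CPM in ColGFP, 493 to 586 CPM in DBL and 57.5 to 228 CPM in TDonly, with Calb2 at 0 in DBL replicate 4 and TDonly replicates 1 and 2. In the mesenchymal, macrophage and leukocyte lists the first-series libraries of DBL and TDonly were the lowest of their populations, as for the airway transcripts, while the ColGFP one was not the highest. Their part in the differences of the 10 transcripts was not tested.

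**Figure D4:**
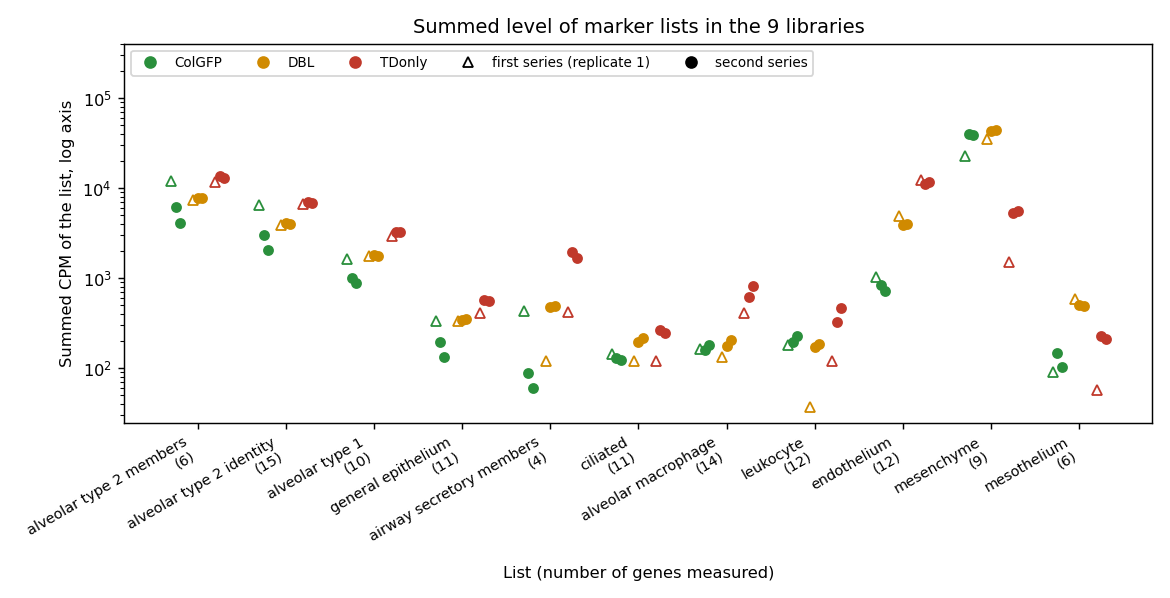
Summed CPM of 11 marker lists in the 9 libraries on a log axis, with the number of measured genes under each list. Colours mark populations and open triangles the first series. The green triangle (ColGFP replicate 1) stands above the green circles for the type 2, type 1, general epithelial and airway lists, and also for the ciliated and endothelial lists (1038 CPM against 844 and 723 CPM of endothelial genes). It stands below them for mesenchyme, leukocytes and mesothelium, and between them for alveolar macrophages.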

How the data were processed

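RNA-seq was made of 9 libraries of sorted mouse lung cells. The submitters' processing notes name cutadapt, TopHat, HTSeq and the build mm10, without versions. Ribosomal RNA was depleted, per the series design text. The values are raw counts per gene, deposited by the authors as 1 table. Groups and replicate numbers came from the sample titles, and columns were matched to samples through the sample number in the labels. A further 3 columns fitted no sample's labels and were left out. Depth limits precision only for the lowest transcripts. Rn45s, a ribosomal RNA gene, held 2.77 to 7.90% of the counts of a library.

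Counts were filtered with filterByExpr (minimum 10), scaled by TMM and tested with the edgeR 4.0.16 quasi-likelihood test (glmQLFit, glmQLFTest) in R 4.3.3 over all 9 libraries with a mean per population, two-sided, with Benjamini-Hochberg adjustment over 15550 genes and a threshold of 0.05. The fit had 6 residual degrees of freedom. The series term was fitted beside population, and the interaction of population and series was added after seeing the data. Alternatives used DESeq2 1.42.0, limma 3.58.1 (voom), other scalings and filters, the second series alone, a replicate block and each library left out. On simulated data for TDonly against ColGFP, 59% of genes changed 2-fold and 90% of genes changed 4-fold were recovered, with 6 false calls. Exact permutation tests used scipy 1.17.1. Exon lengths and positions came from the GENCODE annotation of mm10.

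The members and the gene lists were chosen with earlier results of these data known. All 10 members were named, with up to 4 genes of each list (those of highest mean CPM) and the 5 genes nearest in pattern to Sftpc and to Scgb1a1. Of 187 list entries, 181 matched a row, 7 of them by synonym (Gpr116 for Adgrf5, for example). The unmatched entries Muc16, Mbl2, Bpifa3, Bpifa5, Bpifb4 and Bpifb6 were not analysed here.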

Additional observations from a re-analysis of the deposited data

Results flagged for a closer look

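For all 10 transcripts the value of DBL against ColGFP in the single first-series libraries lay far from that in the second series. An edgeR interaction term, added after this was seen, passed for each (Benjamini-Hochberg adjusted p from 5.5e-10 to 0.0021). With 1 first-series library per population, its error came from the second-series pairs alone (3 residual degrees of freedom) and the lone libraries were assumed to vary like them, so the p-values are not those of a replicated comparison of series. The interaction, first minus second series on the log2 scale, was −1.17 for Sftpc, −1.61 for Sftpa1, −1.54 for Sftpb, −1.28 for Sftpd, −1.21 for Lamp3 and −0.97 for Abca3. For the airway transcripts it was −4.64 for Scgb1a1, −4.40 for Bpifa1, −4.04 for Bpifb1 and −3.87 for Muc5b. Each transcript was lower in DBL than in ColGFP in the first series and higher in the second.

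For TDonly against ColGFP the same term, with the same assumption, passed for all 10 (edgeR adjusted p from 2.1e-10 to 0.0027). The interaction was −1.41 for Sftpc, −1.58 for Sftpa1, −1.54 for Sftpb, −1.45 for Sftpd, −1.31 for Lamp3 and −0.79 for Abca3. It was −4.77 for Scgb1a1, −4.26 for Bpifa1, −4.16 for Bpifb1 and −3.61 for Muc5b. Both sets of values use the single first-series ColGFP library, so they are not independent of each other, and the first series and that library cannot be told apart.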

How the results depend on the processing

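For DBL against TDonly 4 of 10 transcripts passed, 2 with no filter on low counts, 9 when only these populations were fitted and 10 in the second series. Of all genes, 1965 of 15550, 1580 of 19005, 1980 of 15321 and 3031 of 15616 were called lower. For TDonly against ColGFP 5 passed, 8 in DESeq2, 8 in limma-voom, 8 with series as a covariate and 10 in the second series. Called higher were 3355, 3632, 3280 and 3752 of 15550 genes and 4182 of 15616. For DBL against ColGFP 0 passed, and 10 in the second series, where 2543 of 15616 genes were called higher. Leaving out 1 library gave 0 to 4 for DBL against ColGFP, 0 to 9 for DBL against TDonly, 3 to 10 for TDonly against ColGFP and 0 to 4 for the series term, with the upper ends without ColGFP replicate 1. Without that library 9.41% of all genes were called higher for DBL against ColGFP, 12.8% lower for DBL against TDonly and 21.6% higher for TDonly against ColGFP. The series term then passed for 16.2%. The interaction counts were 10, 0 and 10 with each second-series library left out. In the same order all genes gave 739 to 1042 lower, 534 to 721 higher with 59 to 163 lower, and 1262 to 1689 lower. In DESeq2 the DBL against ColGFP interaction missed the threshold for Sftpd (adjusted p = 0.0563) and Lamp3 (adjusted p = 0.0833). The direction of all 10 transcripts for DBL against TDonly and for TDonly against ColGFP held under every alternative run. The values that follow are log2 fold changes (log2 differences for the interaction) whose sign turned. For DBL against ColGFP, Sftpa1 became 0.13 in limma-voom, 0.053 with the covariate and 0.66 in the second series, Muc5b 0.22 in limma-voom and 1.60 in the second series, and Sftpb −0.0015 with upper-quartile factors. For the series term Bpifb1 became 0.12 in DESeq2 and Muc5b −0.38 in limma-voom. The DBL against TDonly interaction became 0.11 for Sftpa1, 0.14 for Sftpb and 0.0098 for Bpifa1 with library totals. For Sftpb it was also 0.0091 with DESeq2 size factors and in DESeq2, 0.0011 with no filter and 0.0083 with a minimum of 10 CPM in 3 libraries. With 1 library left out, DBL against ColGFP ran from −0.24 to 0.57 for Sftpc, −0.37 to 0.60 for Sftpa1, −0.28 to 0.69 for Sftpb, −0.28 to 0.73 for Sftpd, −0.25 to 0.62 for Lamp3 and −0.61 to 1.29 for Muc5b. The series term ran from −0.12 to 0.61 for Sftpc, −0.20 to 0.67 for Sftpa1, −0.13 to 0.70 for Sftpb, −0.0063 to 0.68 for Lamp3, −0.075 to 0.42 for Abca3, −2.15 to 0.88 for Scgb1a1, −1.92 to 0.36 for Bpifa1, −1.52 to 0.71 for Bpifb1 and −1.10 to 0.99 for Muc5b. The DBL against TDonly interaction ran from −0.048 to 0.0087 for Sftpa1, −0.067 to 0.10 for Sftpb and −0.30 to 0.11 for Bpifa1. The cause of these changes was not tested.

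Same-numbered libraries deviated together with correlations of 0.016 to 0.527, not all over 0.1, so the numbers were not taken to pair libraries. A block on the replicate numbers left DBL replicate 4 alone in its block, and the block of replicate 2 held no DBL library. DBL thus entered the comparisons of that fit through replicates 1 and 3 only. A grouping by sample number was not tried. With the replicate block 0 transcripts passed for DBL against ColGFP, 0 for DBL against TDonly and 3 for TDonly against ColGFP, where Scgb1a1 (edgeR adjusted p = 0.121) and Muc5b (adjusted p = 0.0704) did not pass, and the log2 fold change of Sftpa1 became 0.0091 for DBL against ColGFP. Of 15550 genes this fit called 955 higher and 626 lower for DBL against ColGFP. It called 1438 lower for DBL against TDonly and 3039 higher for TDonly against ColGFP.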

Other observations

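Some relatives of the members ran the other way and others did not. Of all genes 21.6% were higher and 24.0% lower in TDonly than in ColGFP, and 26.8% and 29.8% in the second series. Of 5 tested collectin genes, Sftpa1 and Sftpd included, 0 were higher and 2 lower in TDonly than in ColGFP (3 and 2 in the second series). Of 4 tested BPIF genes, Bpifa1 and Bpifb1 included, 2 were higher and 1 lower (3 and 1 in the second series), and the fourth, Bpifb5, had a log2 fold change of 0.70 over all libraries and rose by 1.08 in the second series (edgeR adjusted p = 0.0127). Colec12, a scavenger receptor of the collectin family to which Sftpa1 and Sftpd belong, stood at 725, 829.6 and 816 CPM in ColGFP, 339, 394 and 394 CPM in DBL, and 54.0, 105 and 101 CPM in TDonly. It was lower in TDonly than in ColGFP (log2 fold change −3.19 ± 0.24 (SE), edgeR Benjamini-Hochberg adjusted p = 5.9e-06). Bpifa2, a BPIF protein best known from salivary glands, stood at 6.17, 7.38 and 8.04 CPM in ColGFP, 0.572, 1.31 and 1.17 CPM in DBL, and 0.0779, 0.561 and 0.132 CPM in TDonly. It was lower in TDonly than in ColGFP by the same test (log2 fold change −4.77 ± 0.56), the opposite of Bpifa1 and Bpifb1, and its ColGFP replicate 1 library did not stand above the others. Trp63, a factor of basal cells, was also highest in ColGFP, at 3.18, 3.39 and 5.13 CPM, against 0.176 to 0.481 CPM in TDonly. The basal genes did not share this direction: of 3 tested, 1 was higher and 1 lower in TDonly than in ColGFP. Krt15 was the higher one (log2 fold change 2.10, edgeR adjusted p = 0.0117), at 0.181 to 0.402 CPM in ColGFP and 0.546 to 1.71 CPM in TDonly.

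Hp, a gene of the airway secretory list that other cells also make, stood at 1315 CPM in DBL replicate 1. Its other levels were 71.1 and 79.4 CPM in DBL, 44.9 to 107 CPM in ColGFP and 134 to 163 CPM in TDonly. The 10 transcripts described above held between 0.235 and 1.12 times their second-series DBL mean in that library.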
